A study of Mus musculus with 4 samples.

Results

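The 10 genes described here, of the annexin family and of the S100 proteins that bind annexins, were followed in mouse liver 48 h after partial hepatectomy. The members were all probe sets that name exactly 1 gene symbol, where that symbol is Anxa1, Anxa2, Anxa3, Anxa5, Anxa6, Anxa7, S100a4, S100a6, S100a10 or S100a11. This gave 19 of 45037 probe sets, for 9 of the 10 genes and of 18193 genes named in all. The probe set of S100a11 names several genes and was not used, so S100a11 has no value here. The 10 genes were chosen by a list drawn up with the signals of hepatectomy and sham arrays in view. Their differences are therefore a description, with no test, and nothing is supported by how many of them passed a threshold.

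Total RNA of mature liver from C57BL/6J mice carried a biotin label and was hybridised to Affymetrix expression arrays, on which several short probes per transcript (a probe set) give 1 signal. There were 2 arrays of liver taken 48 h after a sham operation and 2 of liver taken 48 h after partial hepatectomy, the removal of part of the liver, after which the remainder regrows. The design text calls the 2 arrays of a group biological duplicates. Age, sex, the share of liver removed, and how many animals gave the RNA of an array were not given in the sources used here. The spread between arrays may therefore be in part technical. In bulk liver, fewer cells of a type and less RNA per cell cannot be told apart.

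Annexins bind acidic phospholipids of membranes when calcium rises, and they take part in membrane repair, vesicle traffic and the link of membranes to actin. S100 proteins are small calcium-binding dimers, and several of them dock to annexins: S100A10 binds annexin A2 in a complex with a dimer of each, and S100A11 binds annexin A1. S100A6 and S100A4 also bind annexin A2. In healthy adult liver, annexin A2 and S100A6 are known more from bile duct and other non-hepatocyte cells than from hepatocytes, while annexin A6 and annexin A7 are made in many cell types.

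RefSeq promoter windows (GRCm38.p6) were found for 7 of the 10 genes. The 250 bases before the transcription start are printed for the 3 genes with the largest differences in signal, Anxa2, S100a6 and S100a4, and for Anxa7, which had a difference near 0. Capitals mark matches to the motifs searched on both strands: AP-1 (TGANTCA), TEAD (GGAATG), SP1 (GGGCGG), the CCAAT box (CCAAT), the TATA box (TATAAA) and the CArG box. No marked matches overlapped each other.
Anxa2, chr9:69453433-69453682, plus strand: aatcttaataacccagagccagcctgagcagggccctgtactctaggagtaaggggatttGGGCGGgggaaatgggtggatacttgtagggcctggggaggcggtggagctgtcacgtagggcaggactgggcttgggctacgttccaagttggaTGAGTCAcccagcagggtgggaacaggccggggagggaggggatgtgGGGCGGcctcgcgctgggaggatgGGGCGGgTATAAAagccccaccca
S100a6, chr3:90612644-90612893, plus strand: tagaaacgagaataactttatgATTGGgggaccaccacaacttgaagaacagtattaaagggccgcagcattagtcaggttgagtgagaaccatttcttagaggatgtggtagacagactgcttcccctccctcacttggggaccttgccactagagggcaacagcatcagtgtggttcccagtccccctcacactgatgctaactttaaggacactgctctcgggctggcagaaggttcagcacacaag
S100a4, chr3:90603520-90603769, plus strand: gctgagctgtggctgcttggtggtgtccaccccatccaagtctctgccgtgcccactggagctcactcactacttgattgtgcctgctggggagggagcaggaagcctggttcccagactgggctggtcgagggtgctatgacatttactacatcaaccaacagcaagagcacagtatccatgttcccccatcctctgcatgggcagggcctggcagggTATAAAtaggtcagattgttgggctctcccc
Anxa7, chr14:20479942-20480191, minus strand: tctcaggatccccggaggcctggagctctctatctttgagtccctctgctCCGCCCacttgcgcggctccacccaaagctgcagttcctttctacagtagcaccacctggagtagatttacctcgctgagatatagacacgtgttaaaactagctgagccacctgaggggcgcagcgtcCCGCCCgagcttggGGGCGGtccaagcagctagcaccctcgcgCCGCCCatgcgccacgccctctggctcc

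The window of Anxa2 held 1 AP-1 match, 3 SP1 matches and a TATA box that ended 12 bases before the start. The window of S100a4 held a TATA box and no other match, and that of S100a6 held 1 CCAAT box. The printed window of Anxa7, a gene with 2 windows in the table, held 4 SP1 matches. Of the 8 windows of the 7 genes, 3 held a TATA box (Anxa1, Anxa2 and S100a4), against 12.4% of all 32851 windows. AP-1 letters were in 2 of the 8, those of Anxa2 and S100a11, against 6.75% of all windows. A TEAD match was in 1 of the 8 (Anxa1), against 12.6%. SP1 was in 4 of the 8, of which 2 were the overlapping windows of Anxa7, against 32.7%. The CCAAT box was in 1 against 33.8% and the CArG box in none against 1.47%. These are matches of letters and not measured binding sites.

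One array stood apart. Hepatectomy replicate 1 carried transcripts of the adrenal gland. The summed signal of 5 tested adrenal markers was 19040 on this array and 203 on hepatectomy replicate 2. It was 175 and 202 on the sham arrays. Only 2 of these markers were bright enough to be tested without replicate 1, so the others entered the sum through that array. Cyp11a1, the enzyme that starts steroid synthesis, had a signal of 2322 on replicate 1 and 3.33 on replicate 2. Fat cell transcripts were not confined to replicate 1. Of 4 tested fat cell markers, 2 were bright enough to be tested without replicate 1. The 4 summed to 6656 and 2846 after hepatectomy and to 1219 and 1329 after sham. Adipoq, which encodes adiponectin, read 574 and 56.3 against 4.01 and 6.29. Both were thus above sham on each hepatectomy array, and higher on replicate 1. Another of these markers, Retn, was not above the sham mean on replicate 2 (log2 difference -0.13). The 5 hepatocyte markers, among them Alb and Ttr, summed to between 73420 and 85930 on every array, so each held liver RNA. This sum does not show how much other tissue an array held. The 3' to 5' signal ratio of the beta-actin control probe sets was 2.75 and 2.35 in sham and 2.40 and 2.02 after hepatectomy. For the Gapdh control probe sets it was 1.66 and 1.54 in sham and 1.73 and 1.45 after hepatectomy. The median signal was 48.7 and 47.6 in sham and 57.5 and 46.4 after hepatectomy, so replicate 1 was highest on these last 2 measures. Because of the adrenal transcripts, the brightest probe set of each member is given below with and without hepatectomy replicate 1. The values without it still rest on replicate 2, on which the fat cell sum was above sham.

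The members differed widely in how far they stood above sham after hepatectomy. Anxa2, S100a6 and S100a4 had about 4 times the mean sham signal, Anxa1 stood 2.37-fold above it, and Anxa3 and S100a10 were 1.73-fold and 1.35-fold above it. In these 6 genes both hepatectomy arrays lay above both sham arrays, as they did in 28.1% of the 12560 genes tested. Anxa5, Anxa6 and Anxa7 had overlapping groups, although the mean of Anxa5 stood 1.53-fold above sham, more than that of S100a10. All 9 genes had a higher signal on hepatectomy replicate 1 than on replicate 2, as did 53.4% of the genes tested.

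**Figure D1:**
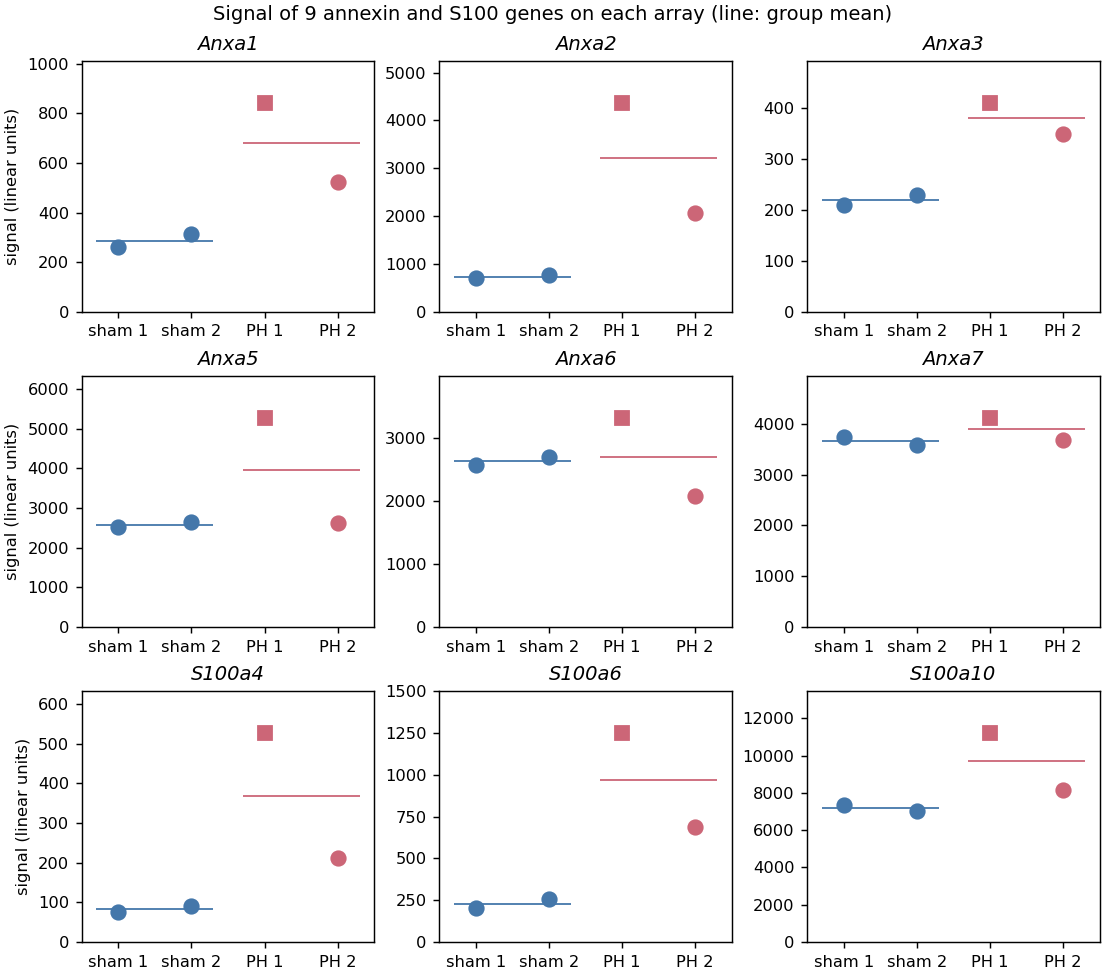
Signal in linear units (y axis, from 0) on each of the 4 arrays (x axis; PH is partial hepatectomy, PH 1 drawn as a square) for the probe set with the highest mean of each of 9 genes; horizontal lines are group means of 2 arrays. Anxa2 lay at 700 and 766 after sham and at 4367 and 2063 after hepatectomy, while PH 2 of Anxa5 lay at 2627, inside the sham range of 2530 to 2634.

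Anxa2 encodes the annexin that, with S100A10, gathers plasminogen and its activator at the cell surface and organises membrane next to actin. Its brightest probe set (1419091_a_at) gave signals of 700 and 766 in sham liver and 4367 and 2063 after hepatectomy. The sham arrays lay within 10% of each other, and the lower hepatectomy array was 2.81-fold above the sham mean. The means were 733 ± 46.9 and 3215 ± 1629 (SD, n = 2 arrays per group). On the log2 scale, after 8.57 was added to each signal, the difference was 2.02 ± 0.31 (SE), and 1.48 ± 0.21 without hepatectomy replicate 1. A further probe set of Anxa2 (1437692_x_at) was dim, at 30.6 and 36.0 after sham and 17.4 and 29.5 after hepatectomy. Its log2 difference was -0.41 ± 0.42, of the opposite sign but within 1 SE of 0. The remaining one (1437691_at) had signals under 5 on all 4 arrays, under the highest signal of the bacterial control probe sets (20.4), and was not tested. The dim probe sets of Anxa2 thus did not repeat the difference, and the value given for the gene rests on the bright one. The mean over its probe sets differed by 0.56, which did not pass.

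S100a6 encodes calcyclin, an S100 protein of proliferating and of epithelial and mesenchymal cells. Its single probe set (1421375_a_at) read 203 and 255 in sham liver and 1250 and 690 after hepatectomy. Both hepatectomy values stood clear of the sham values. The means were 229 ± 37.4 and 970 ± 396, and the log2 difference was 1.99 ± 0.30. It was 1.56 ± 0.28 without hepatectomy replicate 1.

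S100a4 encodes a protein that binds non-muscle myosin and is used as a marker of fibroblasts and of some macrophages. It gave 76.5 and 90.8 after sham and 527 and 212 after hepatectomy (1424542_at). The groups did not overlap, and replicate 1 was 2.49-fold above replicate 2, the widest gap among the 9 genes. The log2 difference was 1.90 ± 0.41, and 1.26 ± 0.37 with replicate 2 alone against sham. The differences of Anxa2, S100a6 and S100a4 lay within 1 SE of each other, so their order carries no information.

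In the limma fit over all 27022 tested probe sets, 2 of the 17 tested member probe sets passed an adjusted p of 0.05 with a higher signal, the bright one of Anxa2 and that of S100a6, against 2.51% of all probe sets. Counted over genes, with the tested probe set of the highest mean standing for a gene, this was 2 of 9 against 3.57% of 12560 genes called higher. None was called lower, against 1.09% of all genes; at an unadjusted p under 0.05, 6 of the 9 were higher and none was lower, against 12.5% and 7.47% of all genes. S100a4 lay just outside the threshold. Nothing is read from these counts, since the comparison that made them also guided the choice of the genes. The fits that follow leave out 1 array, and the group with 1 array left has no measured spread. That group is assumed to vary like the other group, so passing or failing there is a weak check. Anxa2 and S100a6 also passed without hepatectomy replicate 1, where 3.51% of genes were called higher. Both failed without sham replicate 1 (0 of 9 called by limma against 1.67% of all genes, with 5 of 9 higher and none lower at an unadjusted p under 0.05, where 8.13% of all genes were higher). Without sham replicate 2, where 2.17% of genes were called higher, S100a6 passed and Anxa2 failed. Without hepatectomy replicate 2, 6 of 9 passed, against 6.69% of all genes.

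**Figure D2:**
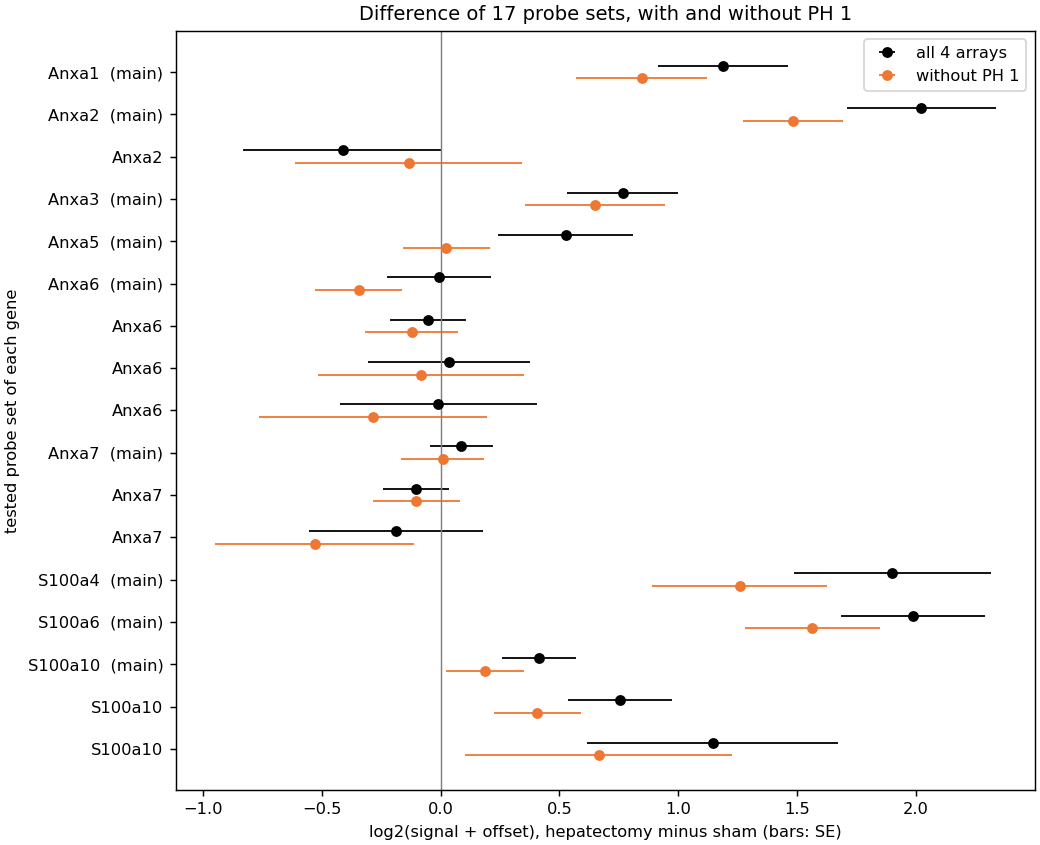
Difference of hepatectomy minus sham on the log2(signal + 8.57) scale (x axis, bars are SE from the limma fit) for the 17 tested probe sets of 9 genes (y axis; main marks the probe set with the highest mean), from all 4 arrays (black) and without PH 1 (orange). Without PH 1, Anxa2 moved from 2.02 to 1.48 and Anxa5 from 0.53 to 0.02.

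Anxa1 encodes the glucocorticoid-induced annexin that binds formyl peptide receptors and limits the entry of neutrophils. Its bright probe set (1448213_at) read 261 and 313 after sham and 842 and 521 after hepatectomy. The groups were apart, and the log2 difference was 1.19 ± 0.27, which did not pass. It was 0.85 ± 0.28 without hepatectomy replicate 1. Its other probe set (1444016_at) was too dim to be tested, with signals up to 49.1 and overlapping groups. The mean over both probe sets differed by 0.50.

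Anxa3, also known as lipocortin III, had the closest hepatectomy replicates of the genes with groups apart. It read 209 and 229 after sham and 410 and 348 after hepatectomy (1460330_at). The log2 difference was 0.77 ± 0.23, which did not pass, and 0.65 ± 0.30 without hepatectomy replicate 1. Among the 6 genes with groups apart, its difference moved least when that array was left out.

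S100a10 encodes p11, the S100 partner of annexin A2. Its brightest probe set (1456642_x_at, a type that may match several transcripts) read 7359 and 6999 after sham and 11210 and 8175 after hepatectomy. The log2 difference was 0.42 ± 0.16, and 0.19 ± 0.17 without hepatectomy replicate 1. Its probe set 1416762_at read 3147 and 2719 against 6291 and 3882, with a log2 difference of 0.76 ± 0.22. The dimmest (1439348_at) read 43.8 and 13.8 against 97.0 and 45.8, a difference of 1.15 ± 0.53. In all 3 probe sets both hepatectomy arrays lay above both sham arrays, and none passed the threshold. By their brightest probe set, 28.1% of tested genes did so, and the share of all probe sets is not given here. The 3 read the same RNA on the same arrays, so they are not independent of each other. Whether the difference of S100a10 is smaller than that of Anxa2 was not tested.

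Anxa5 encodes the annexin whose binding to phosphatidylserine is used to stain dying cells. It read 2530 and 2634 after sham and 5272 and 2627 after hepatectomy (1425567_a_at). Replicate 1 stood 2.04-fold above the sham mean, and replicate 2 lay between the sham arrays. The log2 difference was 0.53 ± 0.28 with all arrays and 0.02 ± 0.18 without replicate 1. The difference of Anxa5 thus rests on that array.

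Anxa6, the large annexin with a doubled core that acts in endocytosis and cholesterol traffic, had differences near 0 in all 4 of its probe sets. The brightest (1415818_at) read 2574 and 2697 after sham and 3322 and 2073 after hepatectomy, with the hepatectomy arrays on either side of the sham arrays. The log2 difference was -0.01 ± 0.22, and -0.34 ± 0.18 without hepatectomy replicate 1. The next (1429246_a_at) read 1518 and 1650 against 1604 and 1454, a difference of -0.05 ± 0.16. The other two were dim, with signals from 36.7 to 67.1, and gave 0.03 ± 0.34 and -0.01 ± 0.41.

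Anxa7, or synexin, acts in the fusion of secretory vesicles. Its probe sets read 3746 and 3587 against 4114 and 3687 (1416138_at), and 2344 and 2454 against 2228 and 2235 (1416137_at). Their log2 differences were 0.09 ± 0.13 and -0.10 ± 0.14. In the former the groups overlapped, and in the latter both hepatectomy values lay below sham by less than 10%. Without hepatectomy replicate 1 the difference of 1416138_at was 0.01 ± 0.17. The dim probe set of Anxa7 (1438764_at) gave -0.19 ± 0.37, with signals from 50.7 to 86.8. Among the 9 genes, Anxa7 also had the smallest gap between the hepatectomy arrays.

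By size of the difference the order was Anxa2, S100a6, S100a4, Anxa1, Anxa3, Anxa5, S100a10, Anxa7 and Anxa6. The median over the 9 genes was 0.77 on the log2 scale, beside 0.02 for all tested genes. Without hepatectomy replicate 1 the median of the 9 was 0.65, and without replicate 2 it was 1.03. The median difference between hepatectomy replicates 1 and 2 was 0.68 over the 9 genes and 0.03 over all tested genes. It ranged from 0.16 for Anxa7 to 1.28 for S100a4.

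**Figure D3:**
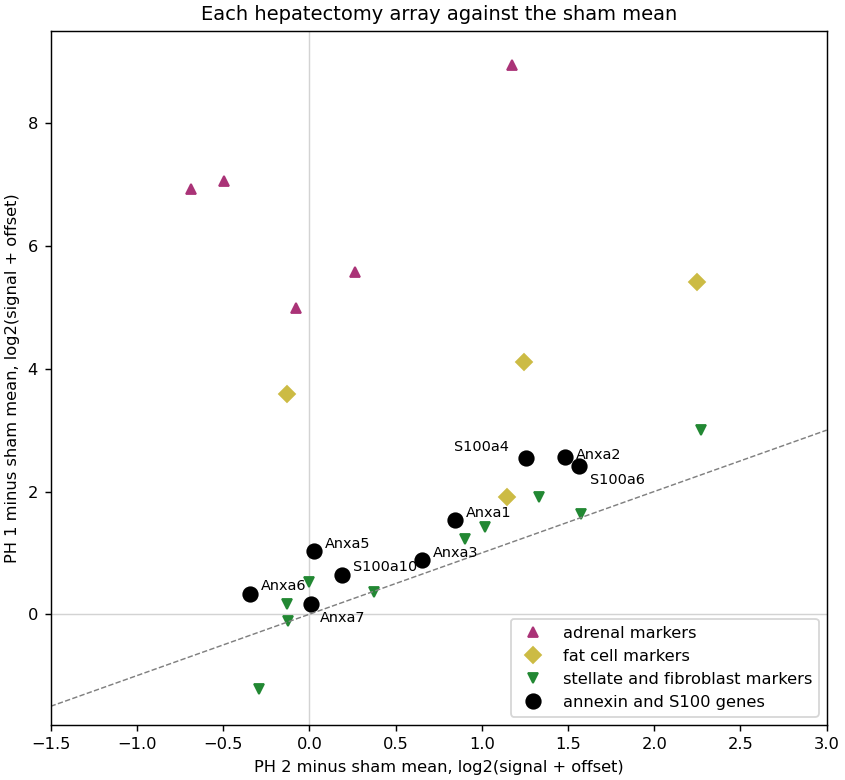
Signal of hepatectomy replicate 1 (y axis, PH 1) and replicate 2 (x axis, PH 2) minus the mean of the sham arrays, both on the log2(signal + 8.57) scale, for the 9 annexin and S100 genes (black) and tested adrenal, fat cell and stellate or fibroblast markers; the dashed line marks equal values. Anxa2 lies at 1.48 on PH 2 and 2.56 on PH 1, while the adrenal marker Cyp11a1 lies at -0.69 and 6.93.

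Other annexins did not move past the threshold. Of 6 listed, 5 had a probe set of their own and 4 were tested. None was called in either direction by limma, and their median log2 difference was 0.39. At an unadjusted limma p under 0.05, 1 was higher and none lower, against 12.5% and 7.47% of all genes. Anxa4, the bright annexin of this list, read 3166 and 3184 after sham and 4038 and 3491 after hepatectomy (0.24 ± 0.14, adjusted p = 0.443). The dimmer probe sets of Anxa4 differed in sign, at 0.64 ± 0.23 (1424176_a_at) and -0.18 ± 0.28 (1457658_x_at), and neither passed. Anxa8 was dim, at 9.54 and 25.8 against 91.9 and 63.7 (1.77 ± 0.45, adjusted p = 0.0827). Anxa9 and Anxa13 differed by 0.54 ± 0.39 and -0.38 ± 0.35. Anxa10 had signals under 7 on all arrays and was not tested, and Anxa11 has no probe set that names it alone.

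Of the other S100 genes, 6 of 12 listed were tested. In limma 2 rose and none fell, against 3.57% and 1.09% of all genes. Thus 2 of 6 were called, against 4.67% of genes called in either direction. At an unadjusted limma p under 0.05, 3 were higher and 2 lower, against 12.5% and 7.47% of all genes. The 3 higher were S100a8, S100a9 and S100g, and the 2 lower were S100a1 and S100a13. The 2 that rose in limma were S100a8 and S100a9, the subunits of calprotectin in neutrophils and monocytes. S100a9 rose from 254 and 236 to 5649 and 2316 (log2 difference 3.84 ± 0.36, limma adjusted p = 0.0015), and S100a8 from 177 and 110 to 4173 and 1204 (3.92 ± 0.51, limma adjusted p = 0.00636). Without hepatectomy replicate 1 their differences were 3.20 and 3.03. S100a1, an S100 protein of muscle and other cells, read 2971 and 2837 against 1821 and 2029 (-0.59 ± 0.15, adjusted p = 0.0749). S100a13, which takes part in the export of fibroblast growth factor 1, read 2184 and 2137 against 1314 and 1552 (-0.59 ± 0.16, adjusted p = 0.0994). S100a16 had -0.22 ± 0.25 (adjusted p = 0.739) and, in a second probe set, 0.18 ± 0.20. S100g, a vitamin D-dependent calcium-binding protein, read 6.17 and 15.02 after sham, below the bacterial controls, and 118 and 46.5 after hepatectomy. It was at least 4.02-fold higher without passing (adjusted p = 0.0683), and at least 2.28-fold higher on hepatectomy replicate 2 alone, so the size of this bound rests on replicate 1.

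S100 genes lie side by side in a cluster on mouse chromosome 3. In RefSeq (GRCm38.p6), S100a1, S100a13 and S100a16 stand at its one end, S100a4 and S100a6 in the middle, with S100a5 between them, and S100a8 and S100a9 at the other end. The 3 tested genes of the former end had differences from -0.59 to -0.22 with none passing, S100a4 and S100a6 had 1.90 and 1.99, and S100a8 and S100a9 had 3.92 and 3.84. S100a16 had 0.06 on hepatectomy replicate 1 and -0.50 on replicate 2, and its second probe set was positive. Whether neighbours in the cluster are more alike than other genes was not tested. S100a14, S100a3 and S100a5, which lie among them, were too dim to be tested. S100a10 and S100a11 lie on the same chromosome outside this run.

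**Figure D4:**
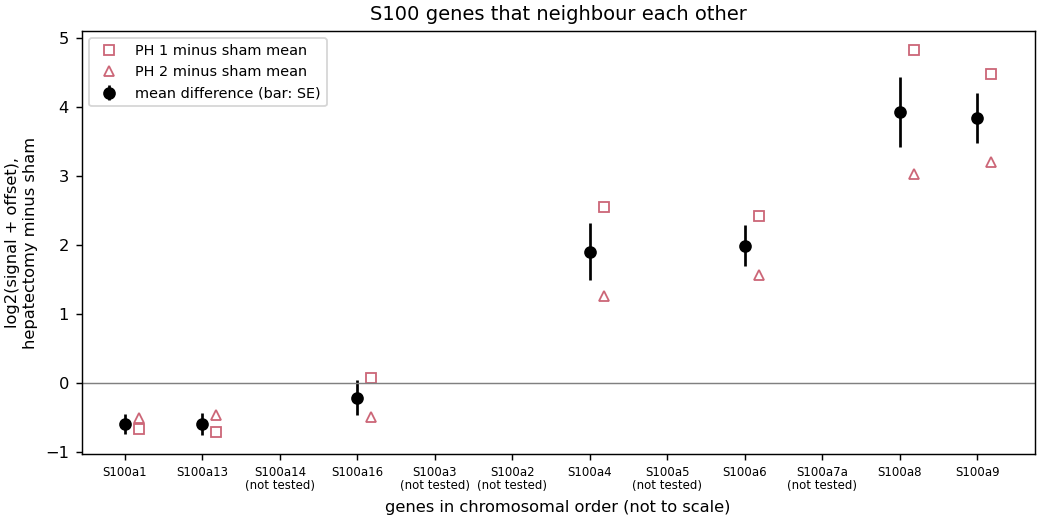
Difference of hepatectomy minus sham on the log2(signal + 8.57) scale (y axis; points are means, bars are SE, open symbols are single hepatectomy arrays minus the sham mean) for S100 genes in the order of the cluster (x axis, not to scale). S100a1 and S100a13 lie at -0.59, S100a4 and S100a6 at 1.90 and 1.99, and S100a8 and S100a9 at 3.92 and 3.84.

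Among known partners of these proteins, none of 14 tested binding partners passed in limma, and their median log2 difference was 0.09. At an unadjusted limma p under 0.05, 1 was higher and none lower, against 12.5% and 7.47% of all genes. Ahnak, the giant scaffold that binds the complex of annexin A2 and S100A10, read 2214 and 1801 against 2753 and 1678 (0.11 ± 0.24, adjusted p = 0.880). Its dimmer tested probe sets had 0.37 ± 0.19 (1428057_a_at) and 0.29 ± 0.42 (1428058_at), and neither passed. Myh9, the non-muscle myosin that S100A4 binds, had 0.20 ± 0.17, and Cacybp, the calcyclin-binding protein, had -0.21 ± 0.15. Lgals3, which encodes the lectin galectin-3, had the largest difference of the list: it read 343 and 406 against 1534 and 708 (1.46 ± 0.34, adjusted p = 0.0625), a larger difference than those of 6 of the 9 members. Partners and members were not tested against each other.

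In the plasmin system that annexin A2 serves, none of 5 tested genes passed in limma, and their median log2 difference was 0.60. At an unadjusted limma p under 0.05, 2 were higher and none lower, against 12.5% and 7.47% of all genes. Plg, the liver's own plasminogen, read 7313 and 6949 against 6360 and 6313 (-0.17 ± 0.11, adjusted p = 0.511). Plaur, the urokinase receptor, read 31.4 and 18.5 against 153 and 49.1 (1.55 ± 0.53, adjusted p = 0.185). Plat, tissue plasminogen activator, read 20.2 and 27.0 against 80.0 and 29.0 (0.85 ± 0.49, adjusted p = 0.450), and both probe sets of Plau, the urokinase gene, were too dim to be tested. Of the receptors, Fpr2, Ager and Tlr4 were tested and none passed in limma (none higher and 1 lower at an unadjusted p under 0.05). Fpr2, a receptor of annexin A1, had -0.07 ± 0.34.

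Markers of other cells that make annexins and S100 proteins are given beside these values, and their part in the members' differences was not tested. Of 10 tested stellate cell and fibroblast markers 4 rose and none fell, against 3.57% and 1.09% of all genes. At an unadjusted limma p under 0.05, 5 were higher and 1 lower. The unadjusted shares of all genes were 12.5% and 7.47%, for this list and the marker lists that follow. The 4 that rose were Col1a1 (2.64 ± 0.36), Acta2 (1.61 ± 0.22), Col3a1 (1.62 ± 0.27) and Col1a2 (1.22 ± 0.22). Some stellate cell markers ran otherwise, named here after their values were seen. Lrat, which encodes the enzyme that esterifies retinol for storage, read 1010 and 1257 after sham and 482 and 919 after hepatectomy (-0.75 ± 0.30, adjusted p = 0.258), and its second probe set had -0.85 ± 0.29. Dcn and Rgs5 had -0.12 ± 0.15 and 0.01 ± 0.19. With hepatectomy replicate 1 left out, Col1a1, Acta2, Col3a1 and Col1a2 had differences of 2.27, 1.57, 1.33 and 1.02, and Lrat had -0.29. The summed signal of the list was 7675 and 10360 after sham and 14820 and 12170 after hepatectomy. None of 6 tested biliary and progenitor markers passed in limma (4 higher and none lower at an unadjusted p under 0.05). Their sums were 1394 and 1871 after sham and 3974 and 1723 after hepatectomy. Krt19 had 1.41 ± 0.43, with sham signals far apart at 74.6 and 205. The median of the list was 0.81, and 0.50 without hepatectomy replicate 1. Epcam (0.07 ± 0.52) and Cd24a (0.46 ± 0.45), named after their values were seen, had overlapping groups. Without that array they had -0.69 and -0.34. None of 5 mesothelial markers passed (1 higher and none lower unadjusted), with sums of 261 and 396 against 486 and 436.

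Among 8 macrophage markers the scavenger receptor gene Marco rose (3.45 ± 0.32) and Csf1r fell by 0.70 ± 0.13, while Cd68 had 0.33 ± 0.18. The sums were 15190 and 15460 after sham and 17310 and 14170 after hepatectomy. Only Csf3r of 6 neutrophil markers with a probe set was tested, and the 6 had signals from 0.87 to 34.6 after sham and from 1.83 to 77.4 after hepatectomy. None of 8 endothelial markers passed (none higher and 1 lower unadjusted), with sums of 7838 and 8059 against 6919 and 7009. Of 7 lymphocyte markers 1 fell, Gzma (-1.46 ± 0.30), with sums of 563 and 459 against 230 and 222. Of the 4 fat cell markers Fabp4 rose (1.53 ± 0.25), and none of the 5 adrenal markers passed (1 higher and none lower unadjusted). Without sham replicate 1 the calls of Col3a1, Acta2, Col1a2, Csf1r, Gzma and Fabp4 were lost, without sham replicate 2 those of Col1a2, Csf1r and Gzma, and without hepatectomy replicate 1 that of Csf1r. All 6 proliferation markers rose, with Mki67 at 88.2 and 106 after sham and 993 and 760 after hepatectomy.

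Genes with a pattern over the 4 arrays like that of Anxa2 were sought by the Euclidean distance between log2 values centred on their mean, among genes at or above the median level. The 5 closest outside the members were Acot2 (0.186), Pdk4 (0.228), Enc1 (0.236), Col4a1 (0.415) and Tubb2a (0.455). Acot2 is a mitochondrial acyl-CoA thioesterase, Pdk4 inhibits pyruvate dehydrogenase, and Col4a1 is a chain of basement membrane collagen. Acot2 read 1096 and 999 after sham and 6089 and 2948 after hepatectomy, so it too was higher on replicate 1. The members were ranked among all tested genes, without the limit on level. Of them S100a4 (0.201, rank 3) and S100a6 (0.214, rank 4) were closest to Anxa2, and Anxa1 (0.884) came next at rank 208. With 4 arrays that share their scaling, this distance describes these libraries and no more.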

How the data were processed

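The authors deposited linear intensities, with 1 value for each probe set on each array. Per the submitters' processing notes the software was GCOS 1.4. Its settings, the detection calls and the dates of scanning were not given in the sources used here, which left no batch to test. After 2% of the values at each end were trimmed, the mean of each array was 500.

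Of 45101 probe sets, 64 controls were left out. The platform annotation gave 34945 of the others 1 symbol, 932 several and 9160 none. Signals were turned to log2 after adding 8.57, the 20th percentile of all values, which understates changes of dim genes. The filter removed probe sets whose mean log2 value was below the 40th percentile (5.09) and left 27022. The contrast of hepatectomy with sham was fitted by lmFit and eBayes in limma 3.58.1 (R 4.3.3; mean-variance trend, two-sided, 2 residual and 6.02 prior degrees of freedom), Benjamini-Hochberg adjusted over all 27022 and called at 0.05. A gene was represented by its tested probe set with the highest mean. A gene with both arrays of a group under 20.4, the top signal among 27 Bacillus subtilis controls, has a fold as a bound against that level. The number of arrays limits the precision. The code was tested on simulated data.

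The members and the lists of other annexins, S100 genes, partners, receptors, plasmin genes and cell markers were chosen with earlier results of these data known. Named were all members, called genes of those lists (at most 4 of a marker list), a short fixed set, and the 5 genes most like Anxa2. Alternatives were the offset, filter, trend, robust estimation, median centring, quantile normalization, multi-transcript probe sets, averaging of probe sets, the replicate number as a block, and each array left out. Proteins were not analysed here.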

Additional observations from a re-analysis of the deposited data

How the results depend on the processing

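The counts rested on the settings. Related genes are the 32 tested other annexins, other S100 genes, binding partners, receptors and plasmin genes, of which 2, S100a8 and S100a9, were called, beside 916 of all probe sets. Without the filter on dim probe sets, 0 member probe sets, 0 member genes, 1 related gene and 308 of all probe sets were called by limma, and without a trend 0, 0, 1 and 258. At an unadjusted p under 0.05, 6 of 9 member genes were higher without the filter and 5 without a trend, against 9.34% and 10.7% of all genes, and none was lower. Robust eBayes called 4 member probe sets and 4 member genes, where 4.28% of genes were called higher and 1136 of all probe sets were called. Median centring called 4, 4 and 5 related genes, beside 3.93% of genes and 1073 probe sets. The mean over a gene's probe sets called 1 member gene, S100a6, and the share of all genes called by it is not given here. It lowered Anxa2 from 2.02 to 0.56, which was not called, and Anxa1 from 1.19 to 0.50. Leaving out _s_at and _x_at probe sets called 3 of 15 member probe sets and 842 of all probe sets. It called 3 of 9 member genes, with S100a4 added (limma adjusted p = 0.0453), and 1 of 29 related genes. S100a8 has only an _s_at probe set, so that setting removed it. The share of all genes called by it is not given here. Leaving out 1 array at a time gave 0 to 7 member probe sets, 0 to 6 member genes, 2 to 7 related genes and 341 to 2012 of all probe sets; the lone array of a group is then assumed to vary like the other group. The fewest came without sham replicate 1. The most came without hepatectomy replicate 2, where the array with adrenal transcripts stands alone for its group.

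The labels give both groups replicate numbers 1 and 2 without saying that they mark a pairing. The deviations of same-numbered arrays correlated at 0.102 across probe sets. With the replicate number as a block, 5 of 17 member probe sets were called higher, beside 1307 of 27022 in all. In either direction 1943 of all probe sets were called, and 4 member genes and 8 related genes. The share of all genes called with the block is not given here, so nothing is read from the gene counts.

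The sign of Anxa6 turned with quantile normalization (0.019), and when 1 array at a time was left out (-0.34 to 0.33), and that of Anxa7 with the mean of its probe sets (-0.068); none of these was called. The other 7 tested member genes kept a positive difference under every alternative listed. Having 2 arrays per group limits every value here.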
